A study of Homo sapiens with 4 samples.

Results

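The unfolded protein and amino acid stress genes are 31 genes taken by name: 13 chaperones, degradation factors and regulators of the endoplasmic reticulum (ER), and 18 genes of the ATF4 arm of the stress response. A gene was read from its brightest probe set over the 4 arrays, of those annotated with its symbol and no other, and all 31 were found among the 19775 genes so read. RNA was hybridised to 4 Affymetrix 1-colour arrays, 1 for each of 4 stably transduced, antibiotic-selected cultures: A549 with an empty vector, A549 with a CHST11 vector, NCI-H358 with an empty vector and NCI-H358 with a CHST11 vector. A549 is a human lung adenocarcinoma line, NCI-H358 a human bronchioloalveolar carcinoma line, and CHST11 a Golgi sulfotransferase that acts on chondroitin chains. No group had a second array, so a difference between vectors within a line carries no p-value. The difference between lines was tested with the 2 arrays of a line as its replicates, after a vector term. The error of that test is how far the vector ratios of the 2 lines differ, moderated over all genes. Its p-values and intervals therefore do not measure a spread between independent cultures. Messenger RNA was measured here. Splicing of XBP1, translation and phosphorylation were not.

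The ER is where secreted and membrane proteins fold. When unfolded chains accumulate, 3 sensors in its membrane respond: IRE1, which splices XBP1 mRNA, ATF6, which is cut to release a transcription factor, and PERK, which phosphorylates the translation factor eIF2. The first pair mainly raise chaperones, disulfide isomerases and the machinery that removes misfolded chains. Phosphorylated eIF2, also reached through GCN2 when amino acids run short, slows general translation but favours translation of ATF4, a transcription factor for genes of amino acid synthesis, uptake and tRNA charging. ATF4 is therefore controlled largely after transcription, and its targets are commonly used to read the pathway in tumour cells.

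The vector check and the sample checks were as follows. The CHST11 probe set had signals of 129 and 344 in A549 with the empty and the CHST11 vector, and of 220.1 and 1058 in NCI-H358. Median signals of the 4 arrays ran from 15.9 to 16.3. Of 6 epithelial markers all 6 were measured in these lines, but they split, with 3 called higher and 3 called lower in NCI-H358. EPCAM was 31.9-fold, KRT19 20.3-fold and CDH1 4.69-fold higher. KRT8 was 2.6-fold, KRT18 2.17-fold and KRT7 1.35-fold lower. NKX2-1, the lung lineage factor, was at least 9.46-fold higher in NCI-H358, while the lung marker ABCA3 was at least 3.5-fold lower. SFTPB and SFTPC were not called. The secretory marker SCGB1A1 lay between 7.82 and 9.16 on all 4 arrays. The pan-leukocyte marker PTPRC lay between 4.2 and 5.69, and the 5 leukocyte markers with a probe set summed to 83.2 and 102 in A549 and to 141 and 134 in NCI-H358. Of these, CORO1A had 13.3 and 14.6 in A549 and 83.5 and 83.6 in NCI-H358. Of 9 fibroblast and endothelial markers, 2 were measured, and the list summed to between 265 and 291 on all 4 arrays. The part of these marker levels in the stress gene results was not tested.

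Promoters of some ER genes carry sequence elements named for the ER stress response. Promoter sequences were not read when members were chosen. Members were, however, taken by name as known genes of these stress responses. Their shares with an element are therefore not independent of that choice, and do not test it. The ER stress elements were picked for display because they were found in ER genes and not in ATF4 genes. RefSeq promoter windows of GRCh38.p14, 250 bases before to 50 bases after a start site, were at hand for 30 of the 31 members and for 27305 genes in all. The ER stress element (ERSE, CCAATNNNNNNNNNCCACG), read on both strands, was found in 5 of 13 ER genes, HSPA5, HSP90B1, PDIA6, CRELD2 and XBP1, against 0.0916% of all genes. The shorter ERSE-II (ATTGGNCCACG) was found in 3 of 13, HERPUD1, HYOU1 and SDF2L1, against 0.0696% of all genes. Together 8 of 13 ER genes had either element, against 0.161% of all genes, and 0 of the 17 ATF4 genes with a window did. A pair of examples of each element follows, 5′ to 3′ on the gene's strand and all upstream of the start site, with the element in capitals. The HYOU1 stretch holds the element in reverse orientation at both its ends.
HSPA5, chr9:125241376-125241424, minus strand: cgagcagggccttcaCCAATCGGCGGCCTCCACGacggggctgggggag
XBP1, chr22:28800588-28800636, minus strand: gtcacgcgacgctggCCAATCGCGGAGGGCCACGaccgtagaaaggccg
HERPUD1, chr16:56932010-56932050, plus strand: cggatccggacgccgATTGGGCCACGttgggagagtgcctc
HYOU1, chr11:119057259-119057405, minus strand: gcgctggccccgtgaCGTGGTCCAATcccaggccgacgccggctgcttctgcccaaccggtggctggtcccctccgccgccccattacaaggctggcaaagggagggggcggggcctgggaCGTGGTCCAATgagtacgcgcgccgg

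The C/EBP-ATF element bound by ATF4 dimers (TGATGNAA, both strands) was found in 4 of 17 ATF4 genes, ASNS, ATF3, CARS1 and CHAC1, and in 1 of 13 ER genes, HERPUD1, against 4.46% of all genes. The core of the unfolded protein response element (TGACGTG) was found in HYOU1, where it overlaps the upstream ERSE-II, and in CARS1, against 2.4% of all genes. These windows end close to the start site, so elements in introns or farther upstream were not searched. Counted from the start site, the C/EBP-ATF element of CARS1 spanned it, at -2 to 6. The CARS1 TGACGTG, at 32 to 38, and the PDIA6 ERSE were found only at starts that were not the gene's most upstream. The ASNS C/EBP-ATF element lay at -68 to -61 and the CHAC1 element, in reverse orientation, at -209 to -202.
ASNS, chr7:97872454-97872491, minus strand: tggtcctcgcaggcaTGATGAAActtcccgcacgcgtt
CHAC1, chr15:40953247-40953284, plus strand: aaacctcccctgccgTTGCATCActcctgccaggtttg

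Between the cell lines, the ATF4 genes split, some far lower and some higher in NCI-H358, and most ER genes lay within 2-fold. The ATF4 genes at least 2-fold lower in NCI-H358 were PCK2 (5.23-fold), DDIT4 (4.75-fold), ASNS (4.26-fold), SLC7A5 (2.38-fold), CARS1 (2.29-fold), PSAT1 (2.26-fold) and TRIB3 (2.14-fold). NUPR1, measured in A549 alone, was at least 1.78-fold lower, so a 2-fold difference was not established for it. STC2 (3.3-fold), CTH (2.18-fold) and DDIT3 (1.74-fold) were higher in NCI-H358. Of the ER genes only HYOU1 differed at least 2-fold, 2.84-fold higher in NCI-H358. The ATF4 mRNA itself differed by log2 -0.04 (95% interval -0.28 to 0.20).

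In bulk RNA, fewer expressing cells and less RNA per cell cannot be told apart. Counts stand beside a high background, since limma at an adjusted p of 0.05 called 64.5% of 12271 measured genes as different between the lines, 33.9% higher and 30.6% lower in NCI-H358. A gene was measured when at least 1 array reached a signal of 27, the 60th percentile of all values. All 31 members passed, but NUPR1 passed only through A549, so its difference was fixed by the filter and it is left out of the counts that follow. Over genes measured in both lines the share called was 60.9%, and 19 of the 30 members measured in both were called (63.3%), so the share of members called was near the background. By direction, 7 members were higher (32.5% of all genes were) and 12 were lower (28.3%). Called and at least 2-fold lower were 7 members, all of them ATF4 genes, against 8.94% of all genes. Called and at least 2-fold higher were 3, against 9.24%. Members were chosen with earlier results of these data known, so these comparisons describe the list and do not test it. With no signal filter limma called 9.63% of 19775 genes, and 12 of the 19 calls were lost (adjusted p from 0.0632 to 0.189). Of the 10 members called at least 2-fold apart, those lost were ASNS, PCK2, PSAT1 and CTH. The median size of the difference was log2 1.1 for the 17 ATF4 genes, 0.30 for the 13 ER genes and 0.42 for all genes measured in both lines.

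**Figure D1:**
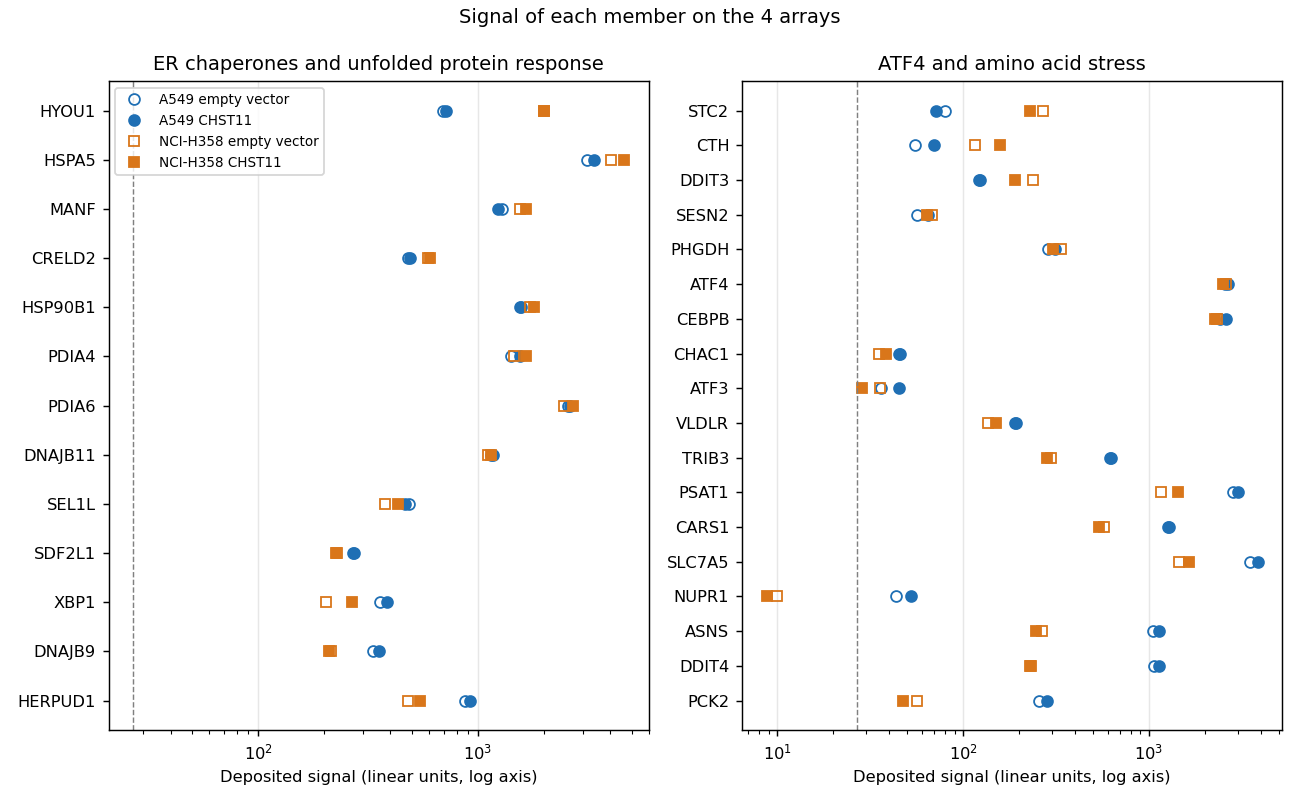
Deposited signal of the 31 members on the 4 arrays (log axis, linear units), ER genes on the left and ATF4 genes on the right, ordered by the difference between lines; blue circles are A549, orange squares NCI-H358, open symbols the empty vector and filled symbols CHST11. The dashed line is the signal filter of 27; levels of different genes are not comparable. The 4 symbols of ATF4 lie together between 2503 and 2674, while the orange squares of ASNS, DDIT4 and PCK2 lie far left of the blue circles.

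Among the ER chaperones, HYOU1, a large HSP70-like chaperone also known for its part in hypoxia, stood apart. Its signals were 691 and 713 in A549 and 2003 and 1991 in NCI-H358, empty vector first in each line. Both NCI-H358 arrays were far above both A549 arrays, and the difference was log2 1.51 (SE 0.0879, adjusted p = 0.000275). HSPA5, or BiP, is the main HSP70 of the ER and the sensors' repressor, and its signals were 3153 and 3380 in A549 and 4052 and 4643 in NCI-H358. That difference, log2 0.41 (SE 0.0899, adjusted p = 0.015), rested on its brighter probe set, since the other measured HSPA5 probe set was lower in NCI-H358 by log2 -0.74. The direction for HSPA5 was therefore not settled, and with the median of its probe sets the value was log2 -0.16 (adjusted p = 0.184).

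MANF, a secreted ER stress protein that binds BiP, had 1286 and 1239 in A549 and 1560.5 and 1655 in NCI-H358, a difference of log2 0.35 (SE 0.093, adjusted p = 0.0273). CRELD2, another small secreted stress protein, had 482 and 489 against 591 and 604 (log2 0.30, SE 0.0871, adjusted p = 0.0353). Both were higher on each NCI-H358 array than on either A549 array, by 1.27-fold and 1.23-fold. Neither had a second probe set, as was so for 15 of the 31 members, among them HYOU1, PCK2, DDIT4, SLC7A5 and DDIT3. The MANF and CRELD2 differences are smaller than the usual disagreement between probe sets of a gene. That was an SD of log2 0.503 over 5577 genes with at least 2 measured probe sets. Of the 19 members called, 5 lay within that SD: HSPA5, MANF, CRELD2, CHAC1 and VLDLR. With the A549 empty vector or the A549 CHST11 array left out, limma with a line term alone left HSPA5, MANF and CRELD2 uncalled. Such fits left 1 array in a line and called fewer of all genes. Calls lost in them, here and below, are therefore not particular to the members named.

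The ER genes HSP90B1, DNAJB11, PDIA4, PDIA6 and SDF2L1 were not called. HSP90B1, the ER HSP90, had 1565 and 1562 in A549 and 1720 and 1808 in NCI-H358, with a difference of log2 0.17 (95% interval -0.06 to 0.41). Its probe set, like that of PDIA6, is of the kind Affymetrix marks as able to cross-hybridise. DNAJB11, a BiP co-chaperone, had a difference of log2 -0.04 (-0.28 to 0.19). PDIA4 and PDIA6, disulfide isomerases, had 0.06 (-0.17 to 0.29) and 0.00 (-0.24 to 0.24), and their lines overlapped. SDF2L1, a partner of DNAJB11, had signals of 270 and 274 in A549 and 229 and 227 in NCI-H358 and was not called at log2 -0.25 (-0.49 to -0.02, adjusted p = 0.0582). SDF2L1 was called lower in 6 of the 15 alternatives (adjusted p from 0.0256 to 0.0462), among them quantile and cyclic loess normalization, and HSP90B1 was called higher with an intensity trend (adjusted p = 0.0422). For these 5 genes the intervals leave out a 2-fold difference.

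The ER genes lower in NCI-H358 were HERPUD1, DNAJB9 and XBP1. HERPUD1, which organises the degradation complex of the ER membrane, had 874 and 916 in A549 and 483 and 544 in NCI-H358 (log2 -0.80, SE 0.0904, adjusted p = 0.00179). DNAJB9, a BiP co-chaperone and a classic target of spliced XBP1, had 334 and 356 against 215 and 210.3 (log2 -0.70, SE 0.092, adjusted p = 0.00295). XBP1 itself had 359 and 386 in A549 and 204 and 268 in NCI-H358 (log2 -0.67, SE 0.111, adjusted p = 0.00601). The lines did not overlap for any of these 3 genes. The other DNAJB9 probe sets gave log2 -0.43 and 0.02, so its size depended on the probe set. XBP1 lost its call when the A549 empty vector or the A549 CHST11 array was left out (log2 -0.72 and -0.62, adjusted p = 0.13 and 0.163). SEL1L, the scaffold of the HRD1 ubiquitin ligase, was not called (log2 -0.23, 95% interval -0.51 to 0.05), except without the NCI-H358 CHST11 array (log2 -0.33, adjusted p = 0.0467). The array does not separate spliced from unspliced XBP1, so these values say nothing of IRE1 activity.

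**Figure D2:**
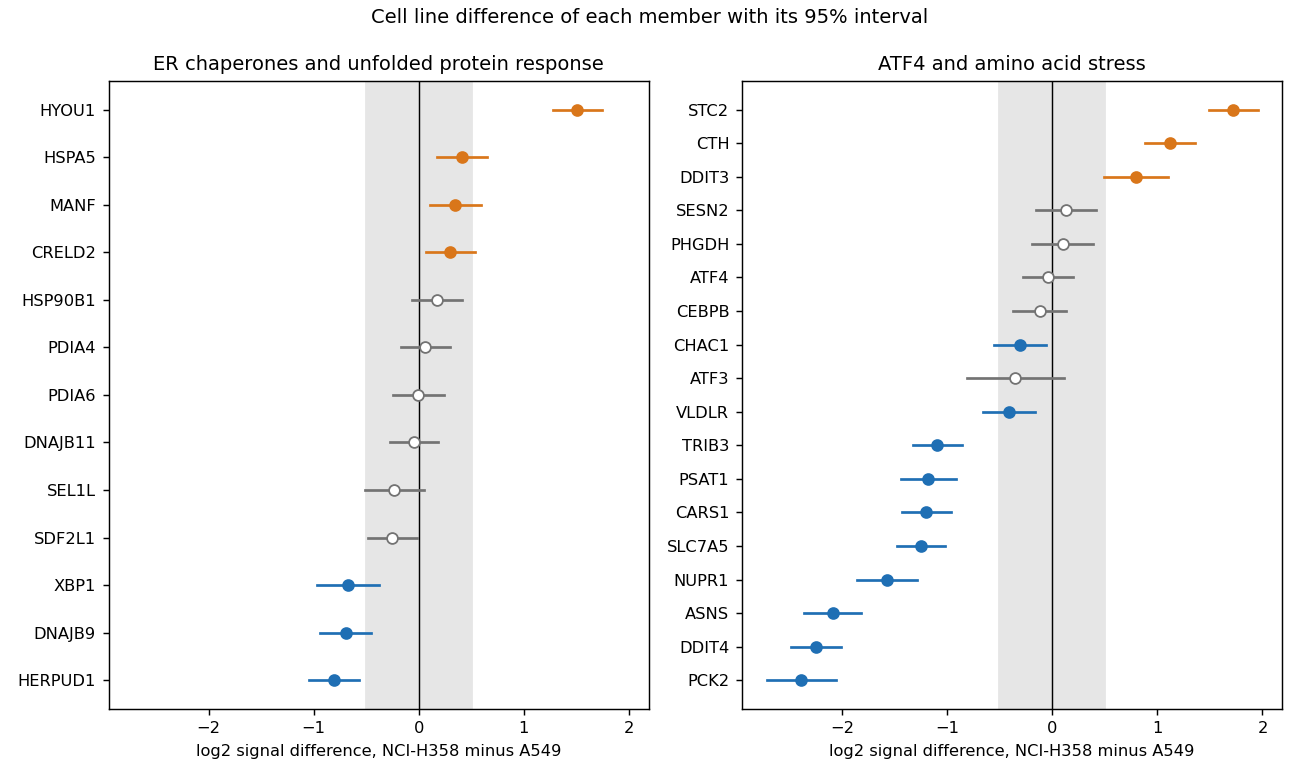
Fitted log2 signal difference between NCI-H358 and A549 for each member (points) with its 95% limma interval (bars); filled orange points were called higher in NCI-H358, filled blue points lower, open grey points were not called. The grey band is the SD between probe sets of a gene, 0.503 on either side of 0. Of the ER genes HYOU1 lies farthest from 0 at 1.51, and of the ATF4 genes PCK2 lies lowest at -2.39 and STC2 highest at 1.72.

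Of the transcription factors of the ATF4 arm, DDIT3 was called higher and ATF4, CEBPB and ATF3 were not called. ATF4 had signals of 2577 and 2674 in A549 and 2607 and 2503 in NCI-H358, overlapping between lines. CEBPB, a dimer partner of ATF4, also differed little (log2 -0.12, -0.37 to 0.13). DDIT3, or CHOP, the factor tied to stress-induced cell death, had 123 and 122 in A549 and 238 and 190.3 in NCI-H358, higher by log2 0.80 (SE 0.115, adjusted p = 0.00385). Without the A549 empty vector array or the A549 CHST11 array the DDIT3 call was lost (adjusted p = 0.0858 and 0.0883) at nearly the same size. ATF3, an early stress factor that damps transcription, was dim, at 36.4 and 45.5 against 35.6 and 28.6. Its line difference was log2 -0.35 (-0.81 to 0.11), an interval that spans 0, so no direction is given for it. The other measured ATF3 probe set gave 0.18 but passed the filter through NCI-H358 alone, which favours a value above 0. NUPR1, a small stress-induced chromatin protein, had 43.8 and 52.7 in A549 and 9.99 and 8.77 in NCI-H358, both below the filter. It was at least 1.78-fold lower in NCI-H358 with those arrays raised to the filter.

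Of the ATF4 genes that encode metabolic enzymes of amino acids or phosphoenolpyruvate, an amino acid transporter or a tRNA synthetase, 5 were called lower (ASNS, PSAT1, PCK2, SLC7A5 and CARS1), CTH was called higher and PHGDH was not called. ASNS, asparagine synthetase and the textbook ATF4 target whose promoter element is shown above, had signals of 1051 and 1128 in A549 and 266 and 246 in NCI-H358 (log2 -2.09, SE 0.101, adjusted p = 0.00017). PSAT1, the transaminase of serine synthesis, had 2839 and 3011 against 1168 and 1431 (log2 -1.18, SE 0.0997, adjusted p = 0.000779). Both PSAT1 probe sets agreed, at log2 -1.23 and -1.18. PHGDH, which catalyses the step before PSAT1, was not called: 285 and 314 in A549 and 336 and 305 in NCI-H358, with overlapping lines and a difference of log2 0.10 (95% interval -0.19 to 0.39). PHGDH and PSAT1 are neighbouring steps of one pathway, and the intervals of their differences (-1.44 to -0.91 for PSAT1) did not meet.

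SLC7A5, the light chain of the large neutral amino acid exchanger LAT1, had 3498 and 3858 in A549 and 1461 and 1634 in NCI-H358 (log2 -1.25, SE 0.0872, adjusted p = 0.000456). CARS1, the cytosolic cysteinyl-tRNA synthetase, had 1289 and 1272 against 575 and 541 (log2 -1.2, SE 0.0884, adjusted p = 0.00054). All 3 measured CARS1 probe sets were lower in NCI-H358, from log2 -1.2 to -0.45. PCK2, the mitochondrial phosphoenolpyruvate carboxykinase, had the widest gap of any member, at 257 and 283 in A549 and 56.2 and 47.4 in NCI-H358 (log2 -2.39, SE 0.125, adjusted p = 0.00021). CTH, which makes cysteine from cystathionine, ran the other way, with 55.1 and 70.2 in A549 and 116 and 158 in NCI-H358 (log2 1.12, SE 0.0905, adjusted p = 0.000686). Its second probe set gave log2 1.21, so the direction of CTH did not depend on the probe set. Its call was lost without the A549 empty vector, the A549 CHST11 or the NCI-H358 CHST11 array, at log2 0.95, 1.3 and 0.89.

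The feedback and growth regulators among the ATF4 genes were lower in NCI-H358 or were not called. DDIT4, or REDD1, an inhibitor of mTORC1 that also responds to hypoxia and glucocorticoids, had 1066 and 1128 in A549 and 233 and 229 in NCI-H358 (log2 -2.25, SE 0.0905, adjusted p = 0.00011). TRIB3, a pseudokinase that restrains ATF4 and AKT, had 627 and 617 against 298 and 285 (log2 -1.1, SE 0.0876, adjusted p = 0.000671), and its dimmer probe set gave log2 -0.49. SESN2, a leucine sensor upstream of mTORC1, did not differ beyond its error, with 56.7 and 64.5 against 68 and 64.2 (log2 0.13, 95% interval -0.16 to 0.41). CHAC1, which degrades glutathione and is induced through ATF4 and CHOP, was dim in both lines, with 45.6 and 45.1 against 35.1 and 38.3 (log2 -0.31, adjusted p = 0.0404). CHAC1 lost its call under limma with an intensity trend (adjusted p = 0.076), and without the A549 empty vector or the A549 CHST11 array (adjusted p = 0.117 and 0.109).

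STC2 and VLDLR complete the ATF4 genes. STC2, a secreted glycoprotein hormone induced in ER stress, had signals of 80.4 and 71.2 in A549 and 270.4 and 231 in NCI-H358, over 3-fold apart with no overlap (log2 1.72, SE 0.0879, adjusted p = 0.000195). Its second probe set gave log2 1.6. VLDLR, a lipoprotein receptor, was lower in NCI-H358, with 190.1 and 192 against 137 and 151 (log2 -0.41, SE 0.0924, adjusted p = 0.0162). The VLDLR call was lost without the A549 empty vector or the A549 CHST11 array (adjusted p = 0.084 and 0.0901).

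Other genes of the pathways, from lists drawn up by known function but with earlier results of these data known, set the members in context. Of all genes measured in both lines, 28.3% were called lower and 32.5% higher. The share called in these lists ran from 50% to 75%, on both sides of the 60.9% of all genes. Over genes measured in both lines, 5 of 8 other amino acid transporters were lower in NCI-H358 and 0 higher, with a median of log2 -0.71, where all genes had a median of 0.03. SLC1A4, a serine and alanine transporter, had 224 and 226 in A549 and 28 and 24.8 in NCI-H358, at least 8.18-fold lower. SLC7A2, a cationic amino acid transporter, measured in A549 alone, was at least 5.88-fold lower. SLC7A6 and SLC38A1 had log2 -0.07 and -0.03 and were not called. Other ATF4 and CHOP targets had 5 of 10 lower and 0 higher (median log2 -0.32). GDF15, a stress-induced secreted factor, had 476 and 620.3 against 75.1 and 52.4 (8.66-fold, adjusted p = 0.000532), and JDP2, a repressor of the AP-1 family that passed through A549 alone, was at least 4.46-fold lower. XPOT and EIF4EBP1, the highest of that list, had log2 0.32 and 0.08 and were not called. The probe sets of SLC1A4 and GDF15 are of the kind Affymetrix marks as able to cross-hybridise.

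The enzyme lists were mixed. Of 8 other enzymes of serine, glycine, folate and proline metabolism measured in both lines, 4 were lower and 2 higher. PSPH, the last step of serine synthesis, was 3.24-fold lower in NCI-H358, while CBS, the step before CTH, was 2.08-fold higher (log2 1.06, SE 0.104, adjusted p = 0.0012), and SHMT2 was higher by log2 0.38. ALDH1L2, measured in A549 alone at 26.4 and 28, was near the filter. Of 16 other cytosolic tRNA synthetases, 6 were lower and 4 higher. YARS1 (2.59-fold) and GARS1 (2.18-fold) were the lowest, and VARS1 (1.69-fold) and LARS1 (1.46-fold) the highest. The CARS1 difference of 2.29-fold lay between those of GARS1 and YARS1.

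**Figure D3:**
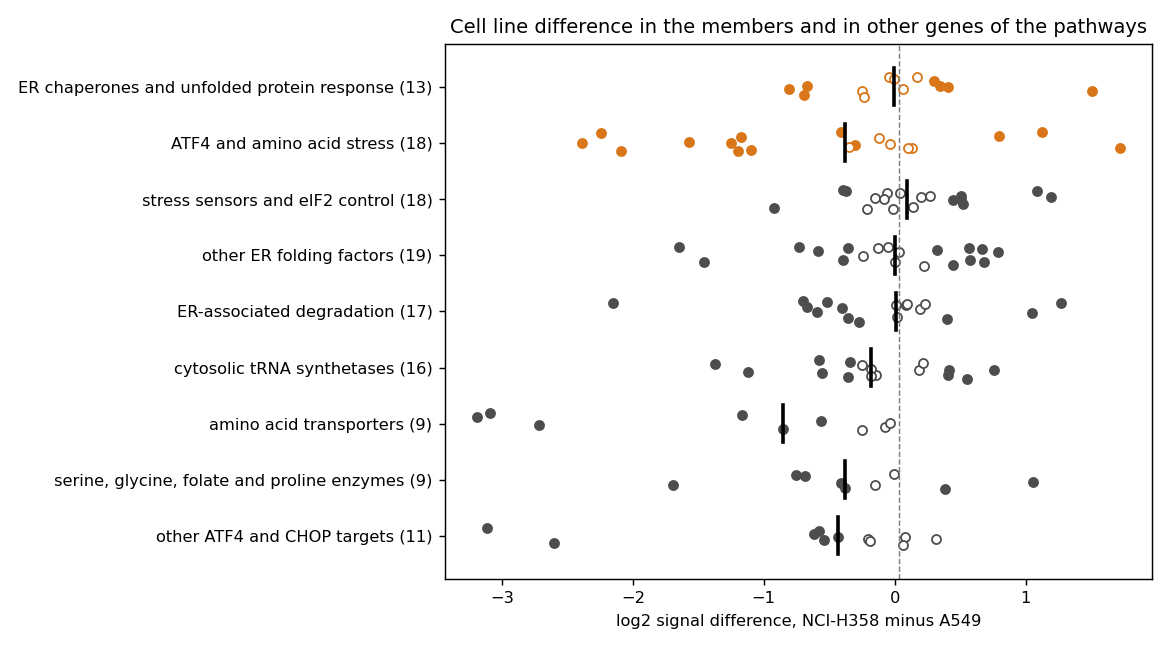
Log2 signal difference between NCI-H358 and A549 for the members (orange) and for other measured genes of the pathways (grey), 1 point a gene; filled points were called by limma, open points were not, and black bars are list medians. The number measured on at least 1 array is in brackets, and the dashed line is the median of all measured genes, 0.03. The 8 amino acid transporters measured in both lines lie below 0, whereas the folding factors spread to both sides. Genes that passed the filter through A549 alone, such as SLC7A2 and ERO1B, could only lie below 0.

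The upstream and ER lists did not share a direction. Of 18 sensors and eIF2 factors, 6 were higher, 3 lower and 9 not called. EIF2AK4, which encodes GCN2, the amino acid sensor kinase, was 2.29-fold higher in NCI-H358 (153 and 138 against 319 and 348, adjusted p = 0.000969), and EIF2B1, a subunit of the eIF2 exchange factor, 2.12-fold higher. EIF2AK1, the heme-regulated kinase, was 1.89-fold lower, and ERN1, which encodes IRE1, 1.32-fold lower. EIF2AK3, which encodes PERK, and ATF6 had log2 -0.06 and -0.01 and were not called. These 2 were named beside the list's extremes as the other ER sensors, after their values had been seen.

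Of 18 other ER folding factors measured in both lines, 7 were higher and 5 lower in NCI-H358. UGGT1, the glycoprotein folding sensor, was 1.73-fold and P4HB, a disulfide isomerase, 1.6-fold higher. FKBP14, a prolyl isomerase, was 3.13-fold lower, and the oxidase ERO1B, measured in A549 alone, at least 1.64-fold lower. Of 17 degradation factors, 8 were lower and 3 higher: EDEM2, which trims mannose from misfolded glycoproteins, was 4.44-fold and DERL2 1.63-fold lower, while UBE2G2, a ubiquitin-conjugating enzyme, was 2.41-fold and EDEM3 2.07-fold higher. HYOU1, at log2 1.51, lay above the highest gene of the folding list, UGGT1 at 0.79.

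With the CHST11 vector, no member changed by 1.5-fold in either line, and few of all genes did, so these counts tell little of the members. In A549 0 of 31 members did, against 1.21% of all genes, and in NCI-H358 0 of 30, against 1.17%. At 2-fold the shares of all genes were 0.114% and 0.0527%. The members' log2 ratios of CHST11 over empty vector ran from -0.18 to 0.35 in A549 and from -0.33 to 0.45 in NCI-H358. The SD between probe sets of a gene was log2 0.158 in A549 and 0.173 in NCI-H358, and 26 of 31 members in A549 and 20 of 30 in NCI-H358 lay within it.

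In each line most ER genes had small positive ratios, but not the same genes in both. Those below 0 were HSP90B1, SEL1L and MANF in A549, and DNAJB9, SDF2L1 and HYOU1 in NCI-H358. In A549 10 of 13 ER genes were above 0 with a median of log2 0.03, where 54.7% of all genes were above 0 with a median of 0.01. In NCI-H358 10 of 13 were above 0 with a median of 0.08, where 50.7% of all genes were, with a median of 0.00. The medians depended on the scaling and the probe set rule, from 0.01 to 0.05 in A549 and from 0.05 to 0.12 in NCI-H358, and 8 to 11 and 9 to 13 of the 13 genes lay above 0. Values of all genes moved as well. With the median of all probe sets in A549, 8 of 13 ER genes and 5591 of 9468 genes were above 0. The ER median of 0.022 was then below the 0.028 of all genes. In NCI-H358 that rule gave 9 of 13 ER genes (median 0.052) and 4564 of 9520 genes (median -0.008). XBP1 had the highest ratio, 0.40 in NCI-H358 (204 and 268) and 0.11 in A549 (359 and 386). HSPA5 had 0.10 and 0.20 in A549 and NCI-H358, and its second probe set 0.09 and 0.30. PDIA4 had 0.14 and 0.18, although its other probe set gave -0.05 in A549. HYOU1, the ER gene with the widest gap between lines, had 0.05 and -0.01.

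Ratios of the ATF4 genes were mostly above 0 in A549 and mostly below 0 in NCI-H358. In A549 13 of 18 were above 0 (median log2 0.09), and in NCI-H358 5 of 17 were (median -0.07, or -0.03 with median centring). CTH had ratios above 0 in both lines, log2 0.35 in A549 (55.1 and 70.2) and 0.45 in NCI-H358 (116 and 158), but its other probe set gave 0.47 and -0.02. STC2 had ratios below 0 in both, -0.18 and -0.23, and its other probe set gave -0.31 and -0.16. DDIT3 had -0.01 and -0.33, PCK2 0.14 and -0.25, and PSAT1 0.08 and 0.29. The second PSAT1 probe set gave 0.27 and -0.13, so the larger ratio fell to a different line with each probe set. ASNS had 0.10 and -0.12 and ATF4 0.05 and -0.06, within the probe set SD of their line. Whether the vector response differed between the lines could not be tested, since the interaction leaves no residual degree of freedom.

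**Figure D4:**
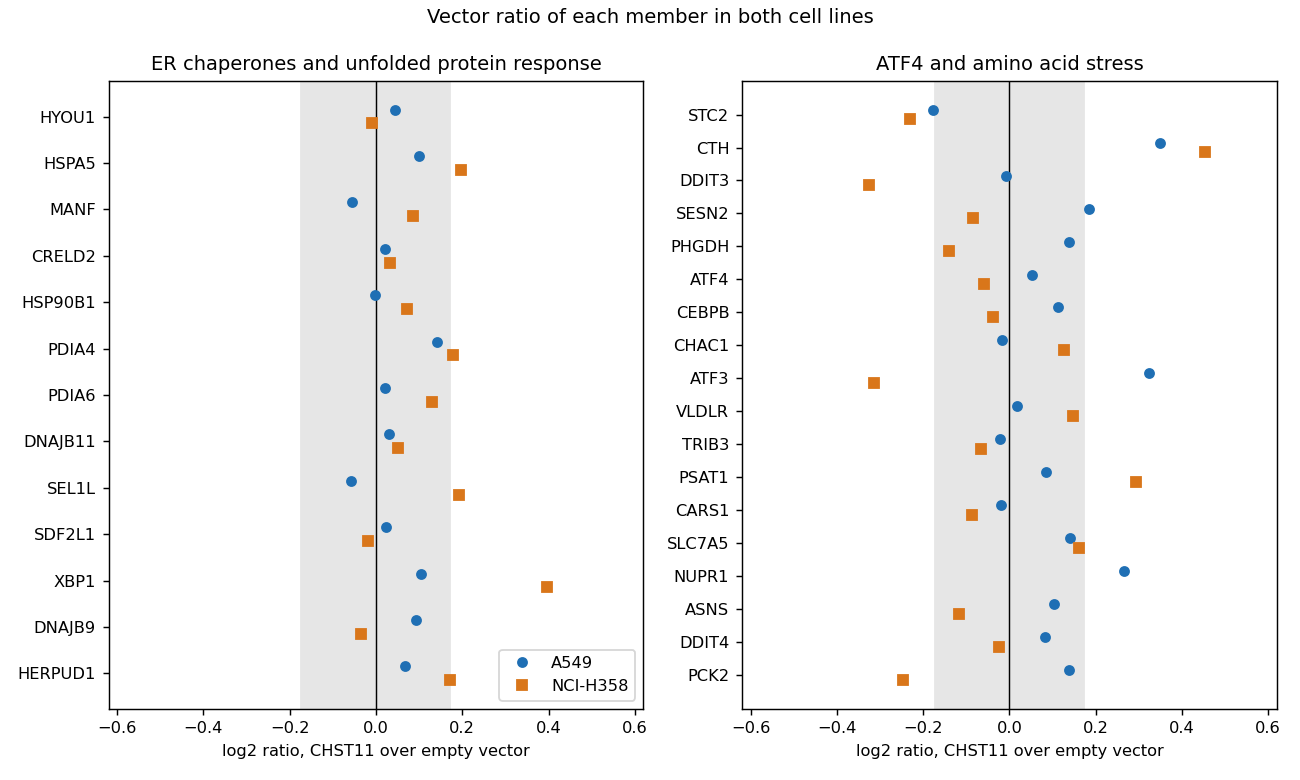
Log2 ratio of CHST11 over empty vector for each member in A549 (blue circles) and NCI-H358 (orange squares), 1 array a group; NUPR1 has no NCI-H358 point because both arrays were below the filter. The grey band is the SD between probe sets of a gene in NCI-H358, 0.173 on either side of 0. Most points lie in the band, XBP1 and CTH lie farthest above it in NCI-H358, and ATF3 lies beyond it on opposite sides in the 2 lines.

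Treating the lines as replicates of the vector contrast, limma called 0 of the 31 members and 0.0% of 12271 genes at an adjusted p of 0.05, and every member had an adjusted p of 1. At an unadjusted p under 0.05 it had 374 genes (3.05%) and 1 member, CTH, with a fitted log2 difference of 0.40 (SE 0.0905, unadjusted p = 0.00851). CHST11 itself was not called after adjustment, at a fitted log2 difference of 1.84 (SE 0.218, unadjusted p = 0.000611 in limma). With 1 residual degree of freedom the test missed the transduced gene, so the lack of calls does not show that members were unchanged. Limma with an intensity trend called 0 genes too, with 330 at an unadjusted p under 0.05. The 3′ to 5′ signal ratio of the GAPDH control probe sets, a gauge of RNA integrity, was 2.64 in A549 with the empty vector and 2.14 with CHST11, and 2.14 and 2.19 in NCI-H358. That of ACTB was 2.4 and 2.14 in A549 and 2.06 and 2.32 in NCI-H358. These ratios moved with the vector, in opposite directions in the 2 lines, and their part in the small member ratios was not tested.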

How the data were processed

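Total RNA of 4 cultures was labelled with biotin and hybridised to Affymetrix arrays. The authors made the deposited intensities with MAS5, per the submitters' processing notes; they are linear and run from 2.46 to 15499. Its version, scaling target, detection calls and any later normalization were not given in the sources used here. Of 54675 probe sets, 41091 carried 1 gene symbol in the platform annotation, and 99.9% of those matched a RefSeq gene record by Entrez ID.

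Signals were floored at 16.1, the 50th percentile, and log2 was taken. limma 3.58.1 (R 4.3.3, lmFit with eBayes) was fitted with a line and a vector term over 12271 genes with Benjamini-Hochberg adjustment, leaving 1 residual degree of freedom and a prior of 3.54. The fit was run on simulated data with independent noise on each array and no vector effect. Such data cannot show whether 2 cultures with different vectors can stand as replicates of a line. Folds between lines with arrays under the filter are given as at least that fold. The named genes are all members, CHST11 and the 2 highest and 2 lowest of each pathway list by line difference. Members and lists were chosen with earlier results of these data known. Alternatives were quantile, median and cyclic loess normalization, other floors and filters, the median of probe sets, a trend, a line term alone and leaving out each array; the median of measured probe sets was added after seeing the data. No protein table was used, so ER retention signals were not analysed here. Other steps used Python 3.11.15, pandas 2.3.3, SciPy 1.17.1 and matplotlib 3.10.9.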

Additional observations from a re-analysis of the deposited data

Results flagged for a closer look

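ATF3 was singled out because its vector ratios had opposite signs in the 2 cell lines, each beyond the probe set SD of its line: log2 0.32 in A549 (36.4 and 45.5) and -0.31 in NCI-H358 (35.6 and 28.6). The difference between the lines was not tested. The second ATF3 probe set, measured in NCI-H358 alone, had -0.20 in A549 and -0.09 in NCI-H358. All these signals were close to the filter of 27.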

How the results depend on the processing

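The direction of the line difference held for the called members in each of the 15 alternatives that tested them, except for HSPA5, which had log2 -0.16 with the median of all or of measured probe sets. The filter at the 75th percentile left 4 members untested (ATF3, CHAC1, SESN2 and NUPR1). Of the 10 members measured in both lines and called at least 2-fold apart, 9 kept their call in every alternative with a signal filter; the exception was CTH. With no filter, limma tested 19775 genes, the prior fell to 0.374 degrees of freedom and 9.63% of genes were called; ER genes called higher and lower then numbered 2 and 0, and ATF4 genes 1 and 4. Leaving out 1 array at a time, with a line term alone, left 1 array in a line and lowered the calls over all genes. Calls of members in those fits are therefore not counted here. Of members not called, PDIA6 had log2 0.0036 with median centring, 0.0756 with the median of all or of measured probe sets, 0.0057 without the A549 CHST11 array and 0.0596 without the NCI-H358 empty vector array. PDIA4 had -0.0284 with either median of probe sets and -0.00994 and -0.0276 without the A549 empty vector and the NCI-H358 CHST11 array, and ATF3 0.18 with the median of all probe sets. The cause of these changes was not tested. Shared vector calls stayed at 0 of the members in the 10 alternative fits with a vector term, but medians of the vector ratios moved by over 1.5 times with the scaling or probe set rule. For the ER genes in A549 the median was log2 0.0112 with quantile, 0.0186 with cyclic loess and 0.0508 with median centring, and in NCI-H358 0.0457 with quantile normalization and 0.0522 with the median of all probe sets. For the ATF4 genes in NCI-H358 it was -0.0304 with median centring. The labels give no replicate numbers, so no block by number was fitted beyond the line and vector terms. Depth is not defined for arrays; dim members such as ATF3, CHAC1 and NUPR1 limit what can be said of them.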
